A study of Mus musculus with 12 samples.

Results

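The 9 genes described here mark fibroblasts of the outer wall of vessels (the adventitia) and of the lower, reticular dermis of mouse skin: Pi16, Clec3b, Dpt, Scara5, Dpp4, Fap, Ebf2, Serpinf1 and Gsn. They are 9 of the 20470 genes tested, and 12 probes measured them: 2 each for Scara5, Serpinf1 and Gsn, and 1 for each of the other genes. All 12 probes passed the filter on dim signals. The genes were chosen by symbol, and several were picked because they fell with a miR-29 mimic, so their values under that mimic are given as a description and are not tested.

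The skin came from C57BL/6 male mice of about 8 weeks. In the first group, 100 nmol of a miR-29b mimic (promiR-29 in the labels) was injected intradermally 72 h after a sutured incision of 1 cm was made (incised mimic). The second group carried the same incision and was given the PBS vehicle (incised PBS). The third group had no wound and was injected with 100 nmol of antimiR-29, an inhibitor (intact antimiR), and the fourth had no wound and was given PBS (intact PBS). Skin was taken 24 h after injection, and each group held 3 biological replicates, 1 array each. No array held incised skin without an injection, and every group was injected, so each difference below is between injected areas. The whole piece of skin was extracted: fewer fibroblasts of a kind and less RNA per fibroblast cannot be told apart.

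Fibroblasts make and turn over the collagen-rich matrix of the dermis. Those in the adventitia and in the fascia below the skin are marked in mice by Pi16 and Dpp4, and are described as a reserve from which more specialised fibroblasts can arise. The reticular dermis lies under the papillary dermis and holds thick collagen bundles, and its fibroblasts come from a separate developmental lineage. miR-29 is a small RNA family that is known for binding collagen, elastin and fibrillin messages and lowering them. The family is printed because one injected oligonucleotide imitates it and the other is meant to block it. Its mature forms share 1 seed, bases 2 to 8, in capitals (RefSeq, GRCm38.p6, Mir29a and Mir29b-1 on chromosome 6, Mir29b-2 and Mir29c on chromosome 1).
miR-29a-3p: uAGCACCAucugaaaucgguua
miR-29b-3p: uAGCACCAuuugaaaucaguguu
miR-29c-3p: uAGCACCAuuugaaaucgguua

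What an array reads is a probe of 60 bases, so the stretch of transcript under each probe bears on the values. The DNA match of the seed, TGGTGCT, occurred in 0 of the 12 member probes on either strand, where 0.969% of the 27151 kept probes held it or its complement. That says nothing about the rest of the transcripts, which were not searched. Of the 12, 4 held a polyadenylation signal (AATAAA or ATTAAA, on the probe strand), the letters near which a transcript is cut and tailed, against 18% of the kept probes. These are the Pi16, Fap and both Gsn probes, and 30 bases around the signal, in capitals, are shown to place them near a transcript end. Positions are those of the scanner files (mm9). Exon and UTR annotation of that build was not used here.
Pi16, chr17:29465784-29465843, plus strand: ccttgactcctgAATAAAgcctgtctgaga
Fap, chr2:62339001-62339060, minus strand: ccgggtagcggaAATAAAgtcagatgctca
Gsn, chr2:35163342-35163401, plus strand: tactttggaaatgaaagccAATAAAagctt

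The pairs of probes that turned out to differ are shown as well. Scara5 and Serpinf1 each had a brighter probe toward the 3′ end of the gene and a dimmer probe upstream, 25.6 kb away in the genome for Scara5 and 5.58 kb for Serpinf1. The array annotation assigns the Scara5 probes to different RefSeq transcripts and the Serpinf1 probes to the same one. On the upstream Scara5 probe, Cy5 was 2.92 to 8.86 times background and Cy3 2.52 to 4.1 times. The upstream Scara5 probe held GGN, the letters of a glycine codon, 6 times in steps of 9 bases (in capitals). Such spacing is that of a collagen-like repeat, which SCARA5 is known to carry. For the 3′ probes the opening 30 bases are given. The 2 Gsn probes shared 44 of 60 bases and so are close to 1 measurement.
Scara5 upstream, chr14:66357280-66357339, plus strand: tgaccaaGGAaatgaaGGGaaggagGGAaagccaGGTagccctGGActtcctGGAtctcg
Scara5 3′ probe, chr14:66382904-66382963, plus strand: ataatttgctcttgacccagggaggaggtt
Serpinf1 upstream, chr11:75229163-75229222, minus strand: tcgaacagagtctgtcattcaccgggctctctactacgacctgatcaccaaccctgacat
Serpinf1 3′ probe, chr11:75223582-75223641, minus strand: acttaatgtctcagtgctctacagaacccc

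Every value below is the log2 ratio of skin RNA (Cy5) to a universal mouse reference RNA (Cy3) on the same array, so that 0 means equal signal and a step of 1 is a 2-fold change. Where a gene had 2 probes, the brighter stands for it. Levels are compared between groups within 1 probe, and where a gene has 2 probes their differences between groups are set side by side. Skin signal was well above background for 65.6% to 73.8% of all probes per array, and for all 12 member probes on all 12 arrays. Intact PBS replicate 3 stood somewhat apart, with a median correlation of 0.921 with its group where the other arrays had 0.939 to 0.976. The arrays lay on 3 slides: slide 1 held incised mimic replicate 1 and the 3 incised PBS arrays, slide 2 held incised mimic replicates 2 and 3 and intact PBS replicates 1 and 2, and slide 3 held the 3 antimiR arrays and intact PBS replicate 3.

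With the mimic, all 9 genes had lower means than incised skin given PBS. In 8 of them the 3 mimic arrays lay below all 3 PBS arrays, where 11.7% of all genes did. Several of the 9 were picked on these values. With the antimiR, all 9 means were again below those of intact skin given PBS, but by less. The test was passed by 2 genes: Scara5, 1.97-fold lower, and Dpp4, 1.59-fold lower. Of all genes, 4.47% were called lower in that comparison. The Scara5 call came from its 3′ probe and was not shared by its upstream probe. Between incised and intact PBS skin the arrays of Pi16, Clec3b and Dpt overlapped. The incision came with a 1.70-fold lower Scara5, and with a higher mean for Fap that did not pass the test. The lowest mean of 8 genes was that of the mimic group, and for Fap it was that of the antimiR group.

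**Figure D1:**
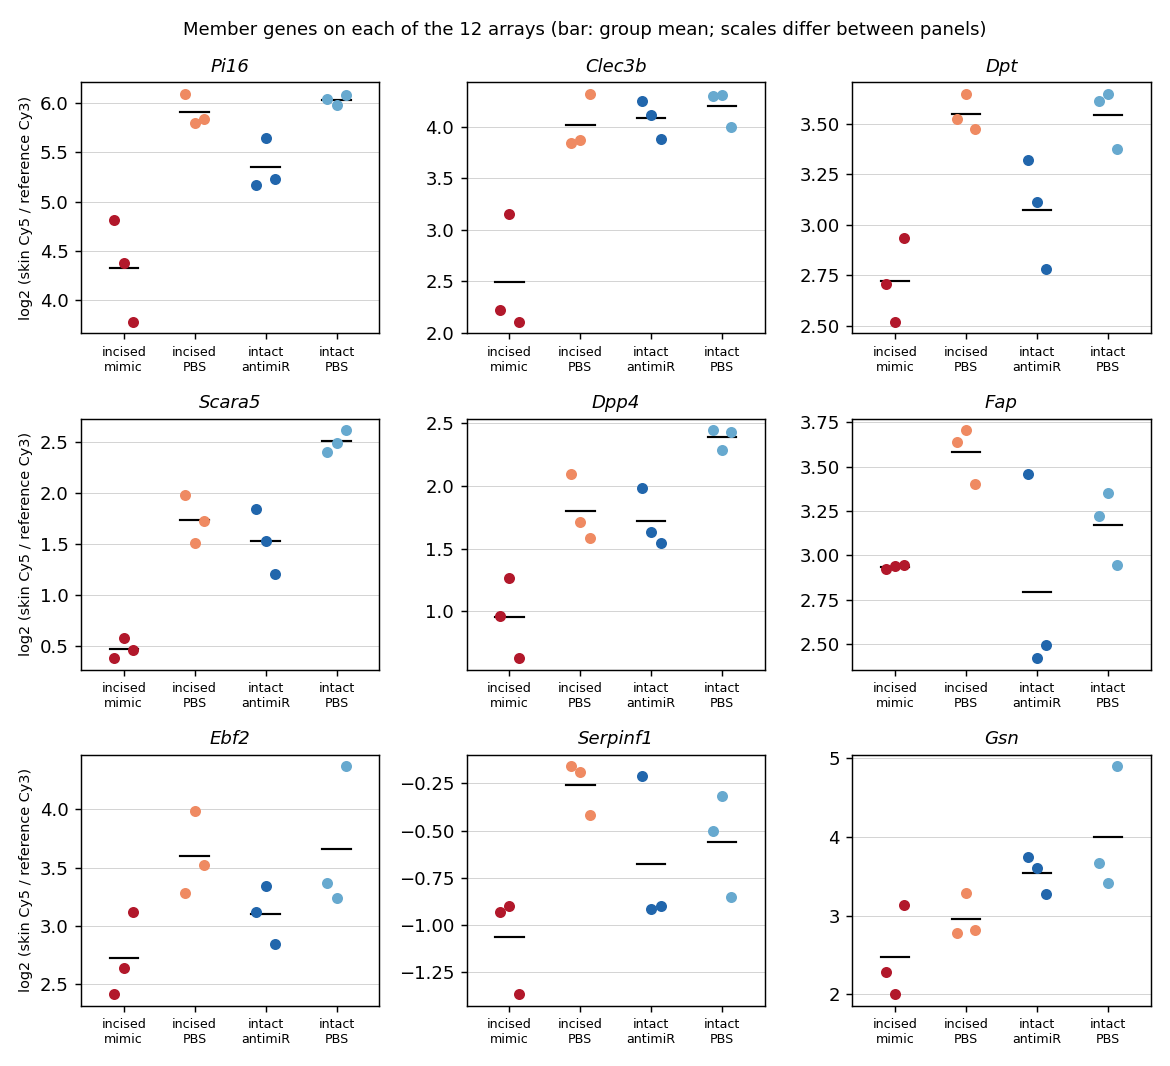
Each panel plots 1 gene: the vertical axis is the log2 ratio of skin to reference signal, each point is 1 array, and the bar is the mean of the 3 arrays of a group. The mimic arrays lie below all incised PBS arrays in every panel but Gsn, and the antimiR arrays lie below all intact PBS arrays for Pi16, Dpt, Scara5 and Dpp4.

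Pi16 encodes a secreted or membrane-tethered protein of the CAP family and is the usual marker of the adventitial fibroblast state. Its log2 ratios were 4.81, 4.37 and 3.77 on the mimic arrays, against 6.10, 5.80 and 5.84 on the incised PBS arrays. They were 5.17, 5.64 and 5.23 on the antimiR arrays and 6.04, 5.98 and 6.09 on the intact PBS arrays. Neither treated group overlapped its vehicle group. The mimic mean was 3.02-fold lower (difference -1.60 ± 0.22, SE), and it was -1.11 within slide 1. The antimiR difference of -0.69 ± 0.22 did not pass the test (limma, adjusted p = 0.076), and incised and intact PBS skin overlapped, with a difference of -0.13 ± 0.22 (adjusted p = 0.74).

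Dpp4 is a serine peptidase of the cell surface that trims peptides at their amino end, and Fap, its closest relative, cuts collagen fragments and marks activated fibroblasts. The 2 genes lie close together on chromosome 2, with Gcg between them, and the probes start 169 kb apart. Dpp4 had 0.97, 1.27 and 0.63 with the mimic, against 2.10, 1.71 and 1.59 in incised skin with PBS. With the antimiR it had 1.99, 1.63 and 1.54, against 2.45, 2.28 and 2.43 in intact skin with PBS. The groups were apart in both pairs, and the 3 incised PBS arrays also lay below the 3 intact PBS arrays. Dpp4 fell with the antimiR by 0.67 ± 0.18 on the log2 scale (limma, adjusted p = 0.043), a call that was lost when any 1 of 5 of the 6 arrays compared was left out (adjusted p = 0.067 to 0.13) and held without antimiR replicate 1. The incision difference of -0.59 ± 0.18 lay at the threshold (adjusted p = 0.0504).

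Fap followed another course. Its ratios were 2.92, 2.94 and 2.94 with the mimic and 3.64, 3.71 and 3.40 in incised PBS skin. They were 3.46, 2.42 and 2.49 with the antimiR and 3.22, 3.35 and 2.95 in intact PBS skin. AntimiR replicate 1 was thus above all intact PBS arrays and the others were below them. The incised PBS arrays lay above all intact PBS arrays, but the difference of 0.41 ± 0.23 did not pass the test (adjusted p = 0.25). The antimiR difference was -0.38 ± 0.23 (adjusted p = 0.36), and without antimiR replicate 1 it was -0.71 (adjusted p = 0.010). Dpp4 and Fap thus differed in the sign of the incision value and shared that of both oligonucleotide values, and the contrast between the genes was not tested.

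Scara5 is a scavenger receptor that takes up ferritin and is enriched in adventitial fibroblasts. Its 3′ probe gave 0.39, 0.58 and 0.46 with the mimic, against 1.98, 1.51 and 1.72 in incised PBS skin. With the antimiR it gave 1.84, 1.53 and 1.21, against 2.40, 2.49 and 2.61 in intact PBS skin. No pair of groups overlapped except the antimiR and incised PBS arrays. The antimiR mean was lower by 0.97 ± 0.16 (adjusted p = 0.0039) and the incised PBS mean was below the intact PBS mean by 0.77 ± 0.16 (adjusted p = 0.010), both limma tests. The mimic mean was 2.39-fold below that of incised PBS skin (difference -1.26 ± 0.16). The antimiR call rests on the 3′ probe, as set out further on.

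Ebf2 is a transcription factor of the early B cell factor family, known for roles in fat precursors and found in adventitial fibroblasts. It had 2.41, 2.64 and 3.12 with the mimic, against 3.28, 3.98 and 3.52 in incised PBS skin. It had 3.12, 3.34 and 2.84 with the antimiR, against 3.36, 3.24 and 4.37 in intact PBS skin, where the top value was that of replicate 3. The antimiR difference was -0.56 ± 0.30 (adjusted p = 0.29) and the incision difference -0.06 ± 0.30 (adjusted p = 0.91). The reference signal of this probe was dim: Cy3 was well above background on 0 of 12 arrays and Cy5 on all 12. The mimic difference of -0.87 ± 0.30 was -0.80 without background correction and -0.33 with the processed signals of the extraction program, and the cause of the shift was not tested.

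Of the secreted proteins, dermatopontin, from Dpt, binds decorin and collagen and helps to assemble fibrils, and Dpt is expressed by nearly all fibroblasts of mouse skin. It had 2.71, 2.52 and 2.94 with the mimic, against 3.52, 3.65 and 3.47 in incised PBS skin. It had 3.32, 3.11 and 2.78 with the antimiR, against 3.61, 3.64 and 3.37 in intact PBS skin. Both oligonucleotide groups were below their vehicle groups without overlap, while the PBS groups lay together (incision difference 0.00 ± 0.15, adjusted p = 0.99). The mimic difference was -0.83 ± 0.15. The antimiR difference of -0.47 ± 0.15 did not pass the test (adjusted p = 0.070), and it was -0.60 without antimiR replicate 1 (adjusted p = 0.038). Dpt is printed on 10 spots of each array, which allows a check of spot noise: the SD between spots was 0.053 to 0.369, and the widest was on antimiR replicate 3.

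Clec3b encodes tetranectin, a C-type lectin that binds plasminogen. Its ratios were 2.22, 3.15 and 2.11 with the mimic, against 3.85, 3.88 and 4.32 in incised PBS skin. They were 4.25, 4.12 and 3.88 with the antimiR, against 4.30, 4.30 and 3.99 in intact PBS skin. The mimic mean was 2.87-fold lower (-1.52 ± 0.25), whereas the antimiR and intact PBS arrays overlapped, with a difference of -0.12 ± 0.25 (adjusted p = 0.82). The incision difference was -0.19 ± 0.25 (adjusted p = 0.65).

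Serpinf1 encodes PEDF, a secreted serpin without inhibitory activity that restrains vessel growth. Its 3′ probe had -0.93, -0.90 and -1.37 with the mimic, against -0.16, -0.19 and -0.42 in incised PBS skin. With the antimiR it had -0.21, -0.92 and -0.90, against -0.50, -0.32 and -0.86 in intact PBS skin. The mimic and incised PBS arrays were apart and the antimiR and intact PBS arrays overlapped. Differences were -0.81 ± 0.21 for the mimic, -0.12 ± 0.21 for the antimiR (adjusted p = 0.79) and 0.30 ± 0.21 for the incision (adjusted p = 0.35).

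Gsn encodes gelsolin, which severs and caps actin filaments and also circulates in a secreted form. Its arrays spread widely within groups, and its SE was the largest of the 9. It had 2.28, 2.00 and 3.13 with the mimic, against 2.78, 3.28 and 2.82 in incised PBS skin. It had 3.75, 3.61 and 3.27 with the antimiR, against 3.67, 3.41 and 4.90 in intact PBS skin, the last again from replicate 3. Both treated groups overlapped their vehicle groups, with differences of -0.49 ± 0.38 for the mimic and -0.45 ± 0.38 for the antimiR (adjusted p = 0.52). All 3 incised PBS arrays were below all 3 intact PBS arrays, by 1.03 ± 0.38 in the mean (adjusted p = 0.087).

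**Figure D2:**
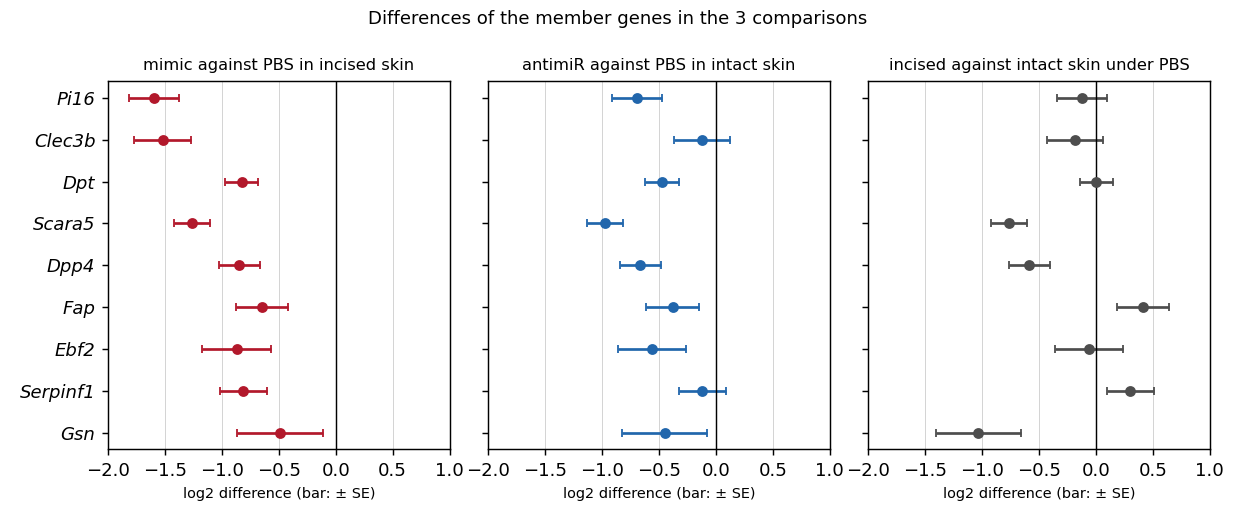
The points are the log2 differences of the 9 genes in the 3 comparisons, and the bars are the standard error from the fit over all 12 arrays. In the mimic panel the values run from -1.60 for Pi16 to -0.49 for Gsn, in the antimiR panel they run from -0.97 for Scara5 to -0.12 for Clec3b and Serpinf1, and in the incision panel 6 are below 0 and 3 above it.

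As a group, the 9 genes had a median mimic difference of -0.85, beside 0.00 over all genes tested. Of the 9, 8 had groups apart with the mimic lower, where 11.7% of all genes did. Since genes were picked on these values, nothing is read from that share, and no test calls are given for the 9 genes here. Among all genes with a test, 0.386% were called lower and 0.205% higher with the mimic at an adjusted p under 0.05, the rule used for the other genes below.

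For the antimiR the median of the 9 was -0.47, beside 0.01 over all genes. Of the 9, 2 were called lower and 0 higher by limma (4 lower and 0 higher at an unadjusted p under 0.05), where 4.47% of all genes were called lower and 5.24% higher. This count takes the brighter probe of each gene. At the upstream probes Scara5 differed by -0.09 and Serpinf1 by -0.72, as set out further on. The groups were apart with the antimiR lower for 4 of the 9, Pi16, Dpt, Scara5 and Dpp4, where 11.7% of all genes were apart in that direction. The rule for the genes names their mimic values and not these, but the genes were listed with earlier results of these data known. All 9 antimiR means were lower than with PBS, where 48.1% of all genes had a negative difference, and those of Clec3b and Serpinf1 were at only -0.12. The 12 muscle, 11 adipocyte and 10 keratinocyte markers listed below were also all negative with the antimiR, with medians of -0.42, -0.45 and -0.17. Each other list of markers or relatives held genes of both signs. The lower means with the mimic follow in part from how the genes were picked. The 2 oligonucleotides were also given in different skin and set against different vehicle arrays, so no shared effect is read from the 2 comparisons.

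For the incision, 1 of 9 was called lower and 0 higher by limma (3 lower and 0 higher at an unadjusted p under 0.05), where 5.55% of all genes were called lower and 9.86% higher. The median was -0.13, beside 0.00 over all genes. Scara5, Dpp4 and Gsn had groups apart with incised skin lower, a direction in which 15.4% of all genes were apart. Fap had groups apart with incised skin higher, where 19.8% of all genes were. The incised PBS arrays serve both in this comparison and in the one on which genes were picked, so these 2 sets of values are not independent.

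Slides and groups were partly bound together, and the differences were therefore also taken within a slide. On slide 1, mimic replicate 1 had a median difference of -0.84 from the mean of the 3 incised PBS arrays. This is 1 array, in the comparison on which genes were picked. On slide 3, the 3 antimiR arrays had a median difference of -0.71 from the single intact PBS array. That array is intact PBS replicate 3, which stood somewhat apart from its group. It had the highest Gsn and Ebf2 values of that group, and the differences of these genes on this slide were -1.35 and -1.27. On that slide the antimiR means of Clec3b and Serpinf1 were above that array by 0.09 and 0.18, and those of the other genes were below it. No slide held both incised and intact PBS skin, so for the incision the slide and the group cannot be told apart by any within-slide value. With slide as a fixed term, the incision difference is reached only through the mimic arrays on slides 1 and 2. It therefore also carries the spread among those arrays, on which genes were picked, and does not settle the part of the slide. The Pi16 value was then -0.83 (limma, adjusted p = 0.33), against -0.13 without the term. In that fit the Scara5 incision difference was -0.58 and was no longer called (adjusted p = 0.46).

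The 2 probes of Scara5 and of Serpinf1 gave different values under the antimiR. The upstream Scara5 probe, which lies in the collagen-like repeat printed above, had 1.80, 1.86 and 1.45 with the antimiR, against 1.57, 1.91 and 1.90 in intact PBS skin. These overlapped, with a difference of -0.09 ± 0.14 (adjusted p over all probes 0.75), where the 3′ probe gave -0.97. For the incision both probes were lower, at 0.99, 0.74 and 1.02 in incised PBS skin upstream, a difference of -0.87 ± 0.14 (adjusted p over all probes 0.0032). The mimic group had 0.50, 0.24 and 0.25 upstream, a difference of -0.59 ± 0.14, against -1.26 at the 3′ probe.

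Serpinf1 showed the opposite arrangement. Upstream it had -1.51, -1.92 and -2.06 with the antimiR, against -1.13, -0.88 and -1.33 in intact PBS skin, apart and lower by 0.72 ± 0.16 (adjusted p over all probes 0.016). The 3′ probe differed by -0.12. With the mimic both probes were lower than in incised PBS skin (-0.64 ± 0.16 upstream and -0.81 at the 3′ probe), and for the incision neither passed the test. The difference between the probes on each array (3′ minus upstream) describes this without a test, since the pairs were noticed on these arrays. For Scara5 it averaged -0.18 with the antimiR and 0.71 with PBS in intact skin, and for Serpinf1 1.15 with the antimiR and 0.55 with PBS, without overlap between the groups in either gene. On the mimic arrays the Scara5 quantity was -0.12, 0.34 and 0.22, against 0.99, 0.76 and 0.70 on the incised PBS arrays. In incised against intact PBS skin the same quantity overlapped for Scara5 and Serpinf1. For Gsn (brighter minus dimmer probe) it overlapped between the antimiR and PBS arrays, and was apart between incised and intact PBS skin, at 0.27 and 0.05. With the dimmer Gsn probe the differences were -0.39 ± 0.39 for the mimic, -0.43 ± 0.39 for the antimiR and -1.25 ± 0.39 for the incision (adjusted p over all probes 0.55 and 0.054 for the last 2). The gene-level antimiR values of Scara5 and Serpinf1 depend on the probe taken. The Scara5 probes are assigned to different transcripts and the upstream one is dim, and the part of either in these values was not tested.

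**Figure D3:**
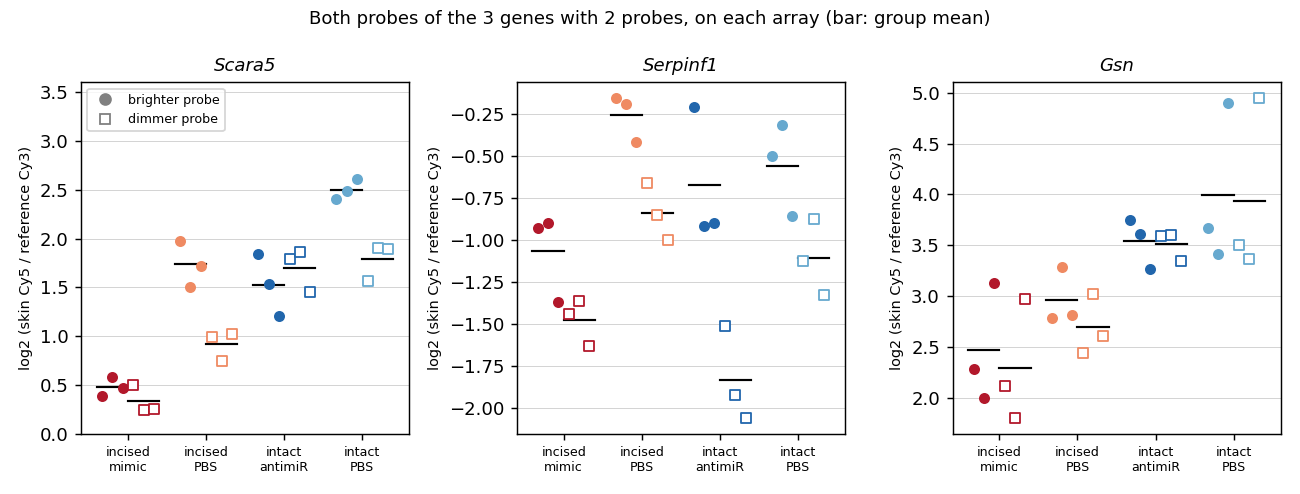
Filled circles are the brighter probe and open squares the dimmer probe of Scara5, Serpinf1 and Gsn on each array, as log2 ratios of skin to reference, with bars at the group means. In the antimiR group the brighter Scara5 probe lies below all its intact PBS values and the dimmer one overlaps them, whereas for Serpinf1 the dimmer probe lies below and the brighter one overlaps.

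The 9 genes moved together to different degrees. Of the 36 pairs, 35 had a Pearson correlation above 0 over the 12 arrays, with a median of 0.68. The highest was Scara5 with Dpp4 at 0.96 and the lowest, -0.06, was that of Fap with Gsn. Averaged after centring each gene, the 9 genes stood at -0.76, -0.67 and -0.76 on the mimic arrays, against 0.28, 0.30 and 0.19 on the incised PBS arrays. They stood at 0.23, -0.01 and -0.25 on the antimiR arrays, against 0.44, 0.42 and 0.59 on the intact PBS arrays. AntimiR replicate 1 was the highest of its group for 7 of the 9 genes. The genes whose values ran most like this average over the 12 arrays, of 19428 compared, were Oaz2 (r = 0.97), Jsrp1 (0.96), Pdlim5 (0.95), Sfrp4 (0.94) and Tcap (0.94). These correlations describe arrays that share 4 groups and 1 reference RNA, and they carry no test. The 12 arrays include the mimic and incised PBS arrays, on which several of the 9 genes were picked for a fall. Positive correlations among the 9, and with their average, are therefore in part a product of that choice.

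The order of the 4 groups was shared by Pi16, Scara5, Dpp4 and Ebf2: incised mimic lowest, then intact antimiR, incised PBS and intact PBS. For Pi16 the antimiR arrays were apart from the mimic arrays below and the incised PBS arrays above, and the PBS groups overlapped. For Scara5 and Dpp4 the antimiR and incised PBS arrays overlapped and the other neighbours were apart. For Ebf2, Serpinf1 and Gsn each neighbouring pair in the order overlapped.

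Other fibroblast genes were taken from lists drawn up with the results known. Of 22 other adventitial markers, the antimiR came with 5 lower and 0 higher (9 and 2 at an unadjusted p under 0.05, limma), and a median difference of -0.26. Gfpt2, of hexosamine synthesis, fell by 1.24 ± 0.22 on the log2 scale (limma, adjusted p = 0.0071) and the annexin gene Anxa3 by 0.89 ± 0.14 (adjusted p = 0.0046). Cd55, which protects cells from complement, fell by 0.58 ± 0.15 and the receptor kinase gene Axl by 0.48 ± 0.12 (adjusted p = 0.034 and 0.029). The surface markers Ly6a and Ly6c1 had positive values, 0.65 and 0.69, short of the threshold (adjusted p = 0.090 and 0.054). In the mimic comparison 2 of 22 were called lower, the guidance factor gene Sema3c by 1.00 ± 0.11 (adjusted p = 0.0087) and the IGF-binding protein gene Igfbp6 by 0.75 ± 0.14 (adjusted p = 0.049), with a median of -0.25. Of the 8 genes called in that comparison among all the lists of genes outside the 9, 0 to 2 were called when any 1 array was left out.

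The incision came with 5 of the 22 lower and 2 higher, and a median of -0.34. Pcolce2, an enhancer of procollagen processing, fell by 1.45 ± 0.17 (adjusted p = 0.00082), Cd55 by 0.78 ± 0.15 (adjusted p = 0.0076) and Igfbp6 by 0.69 ± 0.14 (adjusted p = 0.010). The alarmin gene Il33 rose by 1.58 ± 0.23 (adjusted p = 0.0024). With the antimiR, Pcolce2 was at 0.13 and Il33 at 0.34 (adjusted p = 0.69 and 0.43). The difference between the comparisons was not tested.

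**Figure D4:**
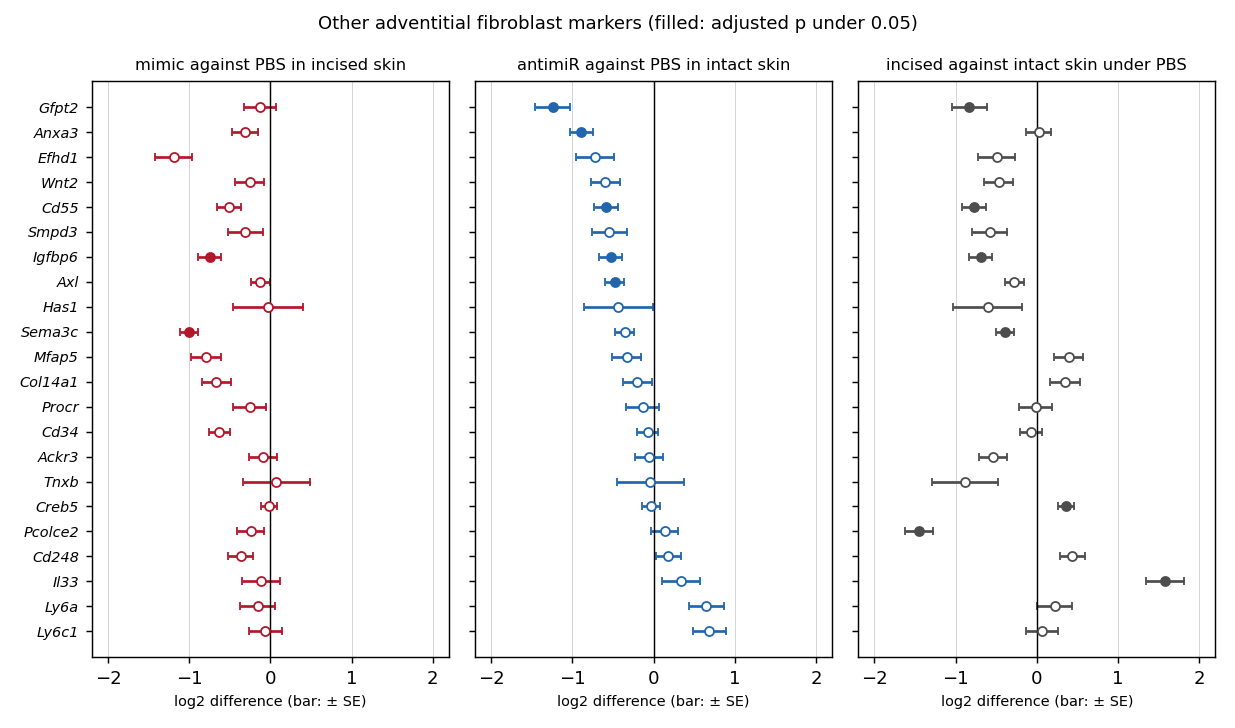
Log2 differences (± SE) of the 22 other adventitial markers in the 3 comparisons, in the order of the antimiR values, with filled points for an adjusted p under 0.05. Gfpt2 is at the top with -1.24 under the antimiR, and Il33 and Pcolce2 lie at the ends of the incision panel with 1.58 and -1.45.

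Markers of other fibroblast states are given by their counts. Of 10 other reticular and deep dermal markers, 0 were called with the mimic and 0 with the antimiR by limma (medians -0.17 and 0.17, with 3 lower and 1 higher at an unadjusted p under 0.05). The incision came with 2 of them higher: the imprinted genes Mest, by 3.44 ± 0.42 (adjusted p = 0.0010), and Dlk1, by 1.46 ± 0.19 (adjusted p = 0.0013). Of 13 papillary markers, 0 were called with the mimic (1 lower and 1 higher at an unadjusted p under 0.05), and Col23a1 was lower with the antimiR. There 9 of the 13 were positive, with a median of 0.06. With the incision 4 were lower, Ntn1, Axin2, Col23a1 and Rspo1, with differences from -1.65 to -0.58. Of 14 general fibroblast markers, S100a4 was higher in all 3 comparisons and Pdgfrb was higher with the antimiR by 1.28 ± 0.13 (adjusted p = 0.00038). With the mimic, however, 11 of the 14 general markers were negative and 3 positive, with a median of -0.22. The incision came with 4 general markers higher, S100a4, Vim, Pdgfrb and Fbln2, and with 4 of 11 activation markers higher, Ncam1, Acta2, Tnc and Cthrc1, by 0.66 to 2.12. None of the activation markers was called with the mimic, where their median was -0.52 and 2 were lower at an unadjusted p under 0.05 (limma). With the antimiR, 12 of the 14 general markers were positive, of which 2 passed the test, and 2 were negative. After centring each gene, the median of that list was 0.62, -0.19 and 0.02 on the antimiR arrays. It was 0.01, 0.06 and -0.51 on the intact PBS arrays, so the groups overlapped. How this list bears on the values of the 9 genes was not tested.

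Relatives of the 9 genes in the same protein families were listed as well. Of 29 such paralogs, 27 were measured, with 0 called lower by limma in the mimic or the antimiR comparison (2 and 4 at an unadjusted p under 0.05). The macrophage scavenger receptor gene Msr1, a relative of Scara5, was higher with the mimic by 1.39 ± 0.24 (adjusted p = 0.033), and Serpinf2, the antiplasmin relative of Serpinf1, was higher with the antimiR by 0.64 ± 0.14 (adjusted p = 0.015). With the antimiR 16 of the 27 were positive and 11 negative, with a median of 0.06. The Ebf2 relatives Ebf1 and Ebf3 had antimiR differences of -0.58 and -0.43 (adjusted p = 0.19 and 0.52), and Ebf4 had 0.34 (adjusted p = 0.067). Of the relatives of Dpp4, Dpp8 and Dpp9 had antimiR differences of -0.23 and -0.04 (adjusted p = 0.18 and 0.85). Dpp7 and Prcp had 0.57 and 0.51 (adjusted p = 0.055 and 0.18), and Prep had -0.31 (adjusted p = 0.068). Dpp6 and Dpp10 had -0.02 and 0.05 (adjusted p = 0.93 and 0.76). With the incision 7 paralogs were higher, among them the Pi16 relatives Glipr1 by 1.60 ± 0.16 (adjusted p = 4e-04), R3hdml, Glipr2 and Pi15, and 1 was lower, the supervillin gene Svil.

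Markers of other tissues in the sample moved beside the 9 genes, and their part in the result was not tested. All 12 skeletal muscle markers were negative with the mimic (3 called lower, 12 with groups apart, median -0.59) and with the antimiR (2 called lower, 10 with groups apart, median -0.42). The median centred level of that list was -0.47 to -0.12 on the mimic arrays, against 0.19 to 0.34 on the incised PBS arrays. It was -0.29 to 0.00 on the antimiR arrays, against 0.16 to 0.37 on the intact PBS arrays. The incision left the list at 0.04, with Myh4 and Pvalb higher. Of 11 adipocyte markers 0 were called by limma in any comparison (2 lower with the mimic and 1 with the antimiR at an unadjusted p under 0.05), with medians of -0.41 for the mimic, -0.45 for the antimiR and -0.17 for the incision. The median centred level of that list was -0.47, -0.76 and 0.63 on the mimic arrays, against -0.26, 0.76 and -0.07 on the incised PBS arrays. It was -0.08, 0.01 and -0.44 on the antimiR arrays, against -0.05, -0.07 and 0.98 on the intact PBS arrays. The arrays that topped the list in the mimic, incised PBS and intact PBS groups were also those with the highest Ebf2 and Gsn values, and the part of this in their results was not tested. Of 12 macrophage markers, the antimiR came with 3 higher (Fcgr1, Cd68 and Ms4a7), while 8 of the 12 were negative, 3 of them at an unadjusted p under 0.05, and the median was -0.21. The incision came with 6 higher and a median of 0.63. Of the markers of pericytes and smooth muscle, Abcc9 was lower with both oligonucleotides and Rgs5 with the antimiR, and of 10 endothelial markers Lyve1 was lower with the antimiR. These lists as a whole did not move that way with the antimiR. Of the 8 pericyte and smooth muscle markers 3 were positive, with a median of -0.03, and of the endothelial markers 6 were positive, with a median of 0.09. The neutrophil and T or NK cell lists had 1 gene each higher with the antimiR, S100a9 and Cd3d. Of 10 keratinocyte and 9 measured hair follicle markers 0 were called by limma with either oligonucleotide (2 keratinocyte and 0 hair follicle markers lower with the antimiR at an unadjusted p under 0.05).

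**Figure D5:**
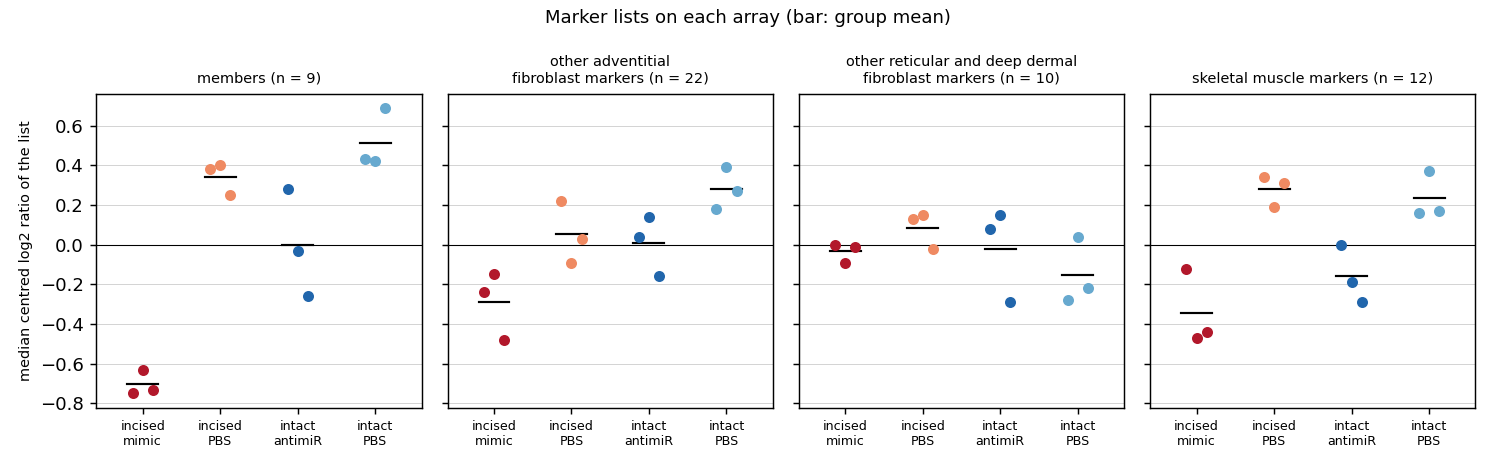
Each point is 1 array and gives the median, over the genes of a list, of the log2 ratio after centring each gene on its mean over the 12 arrays, and bars are group means. The mimic arrays are the lowest of the 12 for the 9 genes. For the muscle list they lie below all incised PBS arrays but overlap the antimiR arrays, and in the reticular list the mimic and incised PBS arrays lie close together, at -0.09 to 0.00 and at -0.02 to 0.15.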

How the data were processed

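The 12 arrays are two-colour Agilent mouse arrays, with skin RNA in Cy5 and universal reference RNA in Cy3 on each, per the labels' protocols, with no dye swap. The deposited scanner files hold spot intensity, per the file headers made with Agilent Feature Extraction 11.5.1.1 on mm9 probe coordinates. They also hold a log10 ratio of Cy5 to Cy3, per the file headers. The deposited table holds log2 values per gene. Its title names the dyes in the other order, but for 15553 genes with 1 probe it matched the log2 ratio of processed Cy5 to Cy3 signals (r = 0.997 to 1.00), so its direction is skin over reference.

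Intensities were background-corrected here (normexp, offset 50) and loess-normalized within arrays with control spots at weight 0, using limma 3.58.1 in R 4.3.3. Spots marked as outliers were left out, and spots of 1 probe were averaged. Of 39429 probes, 27151 were kept: those named other than by their probe identifier, with Cy5 well above background on at least 3 of 12 arrays. The brightest kept probe stood for a gene. One limma fit of 4 group means gave 3 comparisons, and p-values were adjusted by Benjamini-Hochberg over all genes tested. The steps were tested on simulated data. The replicate numbers did not pair the samples: deviations of same-numbered arrays correlated at -0.44 to 0.47.

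The members and lists were chosen with earlier results of these data known. All 9 genes and 12 probes were named. From each other list up to 4 called genes of smallest p per comparison were named, with relatives of the members and the 5 genes most like their average. Alternatives were other background, normalization, filter, probe and model choices and leaving out each array.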

Additional observations from a re-analysis of the deposited data

How the results depend on the processing

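All 9 genes had negative mimic differences in each of the 180 values computed under 20 alternatives, as did 175 of 180 antimiR values and 121 of 180 incision values. Several genes were picked for a fall with the mimic, so nothing is read from the mimic count. The alternatives are also not independent: some change only the spread or the filter and repeat the main difference. Scaling between arrays acts on brightness and left the ratios as they were. The trend and robust fit used genes with a value on every array, and the other-probe alternative was added after the data were seen. Causes of the shifts below were not tested.

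The mimic median of -0.845 was -0.75 in the authors' deposited table and -0.932 to -0.778 with 1 array left out. Called with the antimiR were 2 of the 9 genes in the fit reported, 1 with processed signals, with only the compared groups, with trend and robust fitting or with slide as a random block, 0 in the authors' deposited table (limma, 4 at an unadjusted p under 0.05), and 1 to 4 with 1 array left out (4 without antimiR replicate 1). Dpp4 lost its call in 12 of 20 alternatives (adjusted p = 0.033 to 0.26) and Scara5 in 2 of 20 (0.0022 to 0.76), the authors' deposited table and the other probe. For the incision 1 was called, against 2 without background correction, with processed signals, with the filter on all 12 arrays or with the replicate block, 0 with slide fixed (limma, 1 at an unadjusted p under 0.05), and 1 to 2 with 1 array left out.

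Listed genes outside the 9 numbered 8 called with the mimic, against 1 with processed signals, 2 with Cy5 alone, 1 in the authors' deposited table, 19 with only the compared groups, 4 with trend and robust fitting, 3 with slide random, 0 with slide fixed (17 lower and 10 higher at an unadjusted p under 0.05), 4 with the replicate block and 0 to 2 with 1 array left out (0 without incised PBS replicate 1). With the antimiR 19 were called, against 12 with Cy5 alone, 6 with only the compared groups, 29 with slide fixed and 11 to 23 with 1 array left out. With the incision 40 were called, against 26 with Cy5 alone, 24 in the authors' deposited table, 21 with only the compared groups, 0 with slide fixed (16 lower and 19 higher at an unadjusted p under 0.05) and 24 to 36 with 1 array left out. The lowest counts with the antimiR came without antimiR replicates 2 or 3, and with the incision without incised PBS replicates 2 or 3. With slide fixed, the antimiR difference is taken against intact PBS replicate 3 alone, and the incision difference is reached only through the mimic arrays.

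Over all genes, 121 were called with the mimic (0 with slide fixed by limma, with 645 lower and 836 higher at an unadjusted p under 0.05, 10 in the authors' deposited table, 438 with only the compared groups), 1987 with the antimiR (537 with only the compared groups) and 3154 with the incision (11 with slide fixed). The replicate block is given though the numbers pair nothing, and it left 2 of the 9 called with the antimiR.

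Signs turned in the following cases. With slide fixed, the antimiR differences of Clec3b and Serpinf1 were 0.0871 and 0.179, taken against intact PBS replicate 3 alone. The incision differences of Clec3b, Dpt, Ebf2 and Serpinf1 were then 0.122, -0.0614, 0.759 and -0.0499. Those incision values are reached only through the mimic arrays. The Dpt incision difference was -0.285 with Cy5 alone. With 1 array left out, antimiR differences ranged from -0.35 to 0.00243 for Serpinf1 and from -0.74 to 0.00168 for Gsn (highest without intact PBS replicate 3), and incision differences from -0.0798 to 0.0551 for Dpt and from -0.271 to 0.292 for Ebf2 (highest without intact PBS replicate 3). With 3 arrays a group and the reference signal of Ebf2 not well above background, small differences are not resolved.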

Other observations

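Dpp4 and Fap have other neighbours on chromosome 2 that were measured, and these were looked up after the values of both genes were known. Ifih1, which lies next to Fap on the side away from Dpp4 and encodes the sensor MDA5 for double-stranded RNA, rose with the antimiR by 1.04 ± 0.20 on the log2 scale (limma, adjusted p = 0.0093) and with the incision by 0.88 ± 0.20 (adjusted p = 0.015). With the mimic it was at -0.14 ± 0.20 (adjusted p = 0.85). Gca, the next gene, which encodes the calcium-binding protein grancalcin, had differences of -0.26 ± 0.21 with the antimiR, -0.08 ± 0.21 with the incision and 0.06 ± 0.21 with the mimic (adjusted p = 0.49, 0.84 and 0.95). Values for the gene between Dpp4 and Fap, Gcg, did not pass the filter on dim signals.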
